A study of Mus musculus with 2 samples.

Results

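The miR-23/27/24 clusters are 6 mouse microRNA (miRNA) genes that lie in 2 groups of 3. Mir23a, Mir27a and Mir24-2 lie on chromosome 8, and their paralogues Mir23b, Mir27b and Mir24-1 lie on chromosome 13. The 6 genes were taken by symbol from the 2202 miRNA genes counted in small RNA sequencing of adrenal glands. The animals were 2 B6CASTF1/J males aged 4 days, hybrids of the C57BL/6J and CAST/EiJ strains, and each gave 1 library. The labels name no treatment. Replicate 2 came from male 4 and replicate 1 from male 3, both under the same donor label; the male numbers are the basis for counting 2 animals. No group of another genotype, treatment, age or tissue was analysed, so differences between the libraries are differences between animals, dissections and preparations, which cannot be told apart. In whole-gland RNA, fewer cells of a type and less RNA per cell also cannot be told apart.

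A clustered miRNA is cut from a primary transcript shared with its neighbours. The hairpin precursor is trimmed by Drosha and Dicer into a 5p and a 3p form, and the loaded form finds target messages mainly through its seed, bases 2 to 8. MiR-23 and miR-27 are known for roles in blood vessel growth, miR-27 also for control of lipid metabolism, and miR-24 for restraint of cell division. The adrenal gland is densely vascular and its cortex makes steroids from cholesterol.

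The mature 3p forms, from RefSeq on GRCm38.p6, are shown because their likeness sets what a read can tell about its gene of origin. Capitals mark the seed.
miR-23a-3p (chromosome 8): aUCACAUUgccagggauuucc
miR-27a-3p (chromosome 8): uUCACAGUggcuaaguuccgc
miR-27b-3p (chromosome 13): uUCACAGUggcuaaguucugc
miR-24-3p (chromosomes 8 and 13): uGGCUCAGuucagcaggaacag

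The miR-27 paralogues share their seed and differ by C19U alone, with positions counted from 1 at the 5′ end of miR-27a-3p and the miR-27b-3p base given last. RefSeq lists no 3p form for Mir23b, so the matching stretch was read from its precursor. The 3p stretch of the Mir23b precursor differs from miR-23a-3p by U19A alone, so the seed is the same. Among the 2202 annotated precursors, a read that starts at the first base of miR-23a-3p, miR-27a-3p or miR-27b-3p fits a single gene only once it is 19 bases long. The mature forms are 21 bases long. MiR-24-3p is identical at Mir24-2 and Mir24-1 over all 22 bases, so no full-length read of it can be given to either gene.

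The precursors show how far this likeness reaches. Capitals mark the longest run that both paralogues share.
Mir23a: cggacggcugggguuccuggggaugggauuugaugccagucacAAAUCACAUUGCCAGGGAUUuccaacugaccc
Mir23b: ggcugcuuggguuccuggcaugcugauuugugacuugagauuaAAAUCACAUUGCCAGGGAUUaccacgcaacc
Mir27a: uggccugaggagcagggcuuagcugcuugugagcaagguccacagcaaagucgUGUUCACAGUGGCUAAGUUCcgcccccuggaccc
Mir27b: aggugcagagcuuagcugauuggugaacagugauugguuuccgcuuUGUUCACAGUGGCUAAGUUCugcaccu
Mir24-2: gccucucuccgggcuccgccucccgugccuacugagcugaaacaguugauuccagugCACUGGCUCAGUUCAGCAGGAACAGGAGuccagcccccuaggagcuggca
Mir24-1: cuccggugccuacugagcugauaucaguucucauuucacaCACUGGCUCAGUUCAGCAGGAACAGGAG

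The shared run is 20 bases long in the miR-23 pair, 20 in the miR-27 pair and 28 in the miR-24 pair. It lies in the 3p arm in all 3 pairs. The 5p forms are less alike. Compared position by position without a gap, miR-24-2-5p and miR-24-1-5p differ at 5 positions. These are shown here in capitals, with the last base of the longer miR-24-1-5p. Both forms end in CAGU, so with a gap allowed they differ by 1 substitution and 1 extra U in miR-24-1-5p. Counted from 1 at the 5′ end of miR-24-2-5p, with the miR-24-1-5p base given last, A17U is the nearest to that end, so 17 bases tell the forms apart.
miR-24-2-5p: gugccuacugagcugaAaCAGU
miR-24-1-5p: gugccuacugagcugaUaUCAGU

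All 6 genes lie on the plus strand of mm10. On chromosome 8, Mir23a spans 84208518 to 84208592, Mir27a spans 84208672 to 84208758 and Mir24-2 spans 84208815 to 84208921, a cluster of 404 bases. Mir23a and Mir27a overlap no annotated host gene, and Mir24-2 overlaps an exon in 1 transcript of the noncoding gene Gm26532. On chromosome 13, Mir23b spans 63300484 to 63300557, Mir27b spans 63300712 to 63300784 and Mir24-1 spans 63301208 to 63301275, a cluster of 792 bases. This cluster lies within the protein-coding gene 2010111I01Rik, and on the other strand within an intron of Fancc, a DNA repair gene. Mir23b is intronic in all 9 transcripts of 2010111I01Rik that reach it. Mir27b overlaps an exon in 1 of 9 transcripts, and Mir24-1 overlaps an exon in 4 of 11. Each Mir24 gene also has a miRNA gene annotated on the other strand, Mir3074-2 opposite Mir24-2 and Mir3074-1 opposite Mir24-1.

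**Figure D1:**
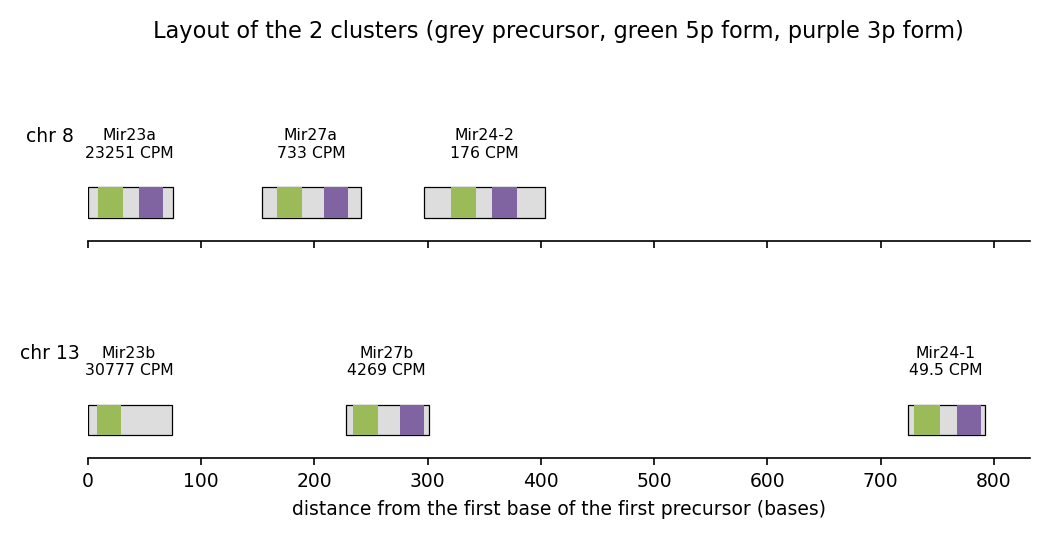
Layout of both clusters, with the distance in bases from the first base of Mir23a (upper row) or Mir23b (lower row) on the x axis. Grey boxes are precursors, green and purple stretches are the 5p and 3p forms that the RefSeq table lists, and the number above each box is the mean CPM over the libraries of the reads that fit 1 locus, which for the Mir24 genes leaves out miR-24-3p. The chromosome 8 cluster spans 404 bases and the chromosome 13 cluster 792. RefSeq lists no 3p form for Mir23b, so none is drawn.

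Levels are read counts per miRNA gene on the sense strand, scaled to 1000000 such counts in a library (CPM). Each read is a fragment of miRNA size, so CPM compares numbers of reads without division by gene length. Sense-strand counts totalled 1686822 in replicate 2 and 3961630 in replicate 1, so replicate 2 has the wider counting error. Reads that aligned to several loci, 1684373 in replicate 2 and 3176275 in replicate 1, were set aside in the deposited tables and are in no value here. All 6 genes reached 10 counts in each library and so counted as detected, as were 340 of the 2202 genes. All 7 miRNA genes listed for chromaffin and other neuroendocrine cells were detected, led by Mir375 with 42377 CPM in replicate 2 and 31129 CPM in replicate 1. Detection does not check the tissue, since every listed erythroid, hepatocyte and endothelial gene was detected too.

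Together the 6 genes held 4.88% of the miRNA counts in replicate 2 and 6.97% in replicate 1, a mean of 5.93% ± 1.47 (SD, n = 2). Most of these counts, which leave out miR-24-3p, came from the miR-23 genes. The miR-23 genes held 4.37% of the miRNA counts in replicate 2 and 6.44% in replicate 1. The order of the counts, Mir23b, Mir23a, Mir27b, Mir27a, Mir24-2, Mir24-1, was the same in both libraries.

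Mir23b was the highest of the 6, with 25477 CPM in replicate 2 and 36077 CPM in replicate 1, a mean of 30777 ± 7495 CPM (SD, n = 2). It ranked 11 among all miRNA genes in replicate 2 and 8 in replicate 1. Mir23a had 18185 CPM in replicate 2 and 28317 CPM in replicate 1, a mean of 23251 ± 7164 CPM, and ranked 18 and 11. Replicate 1 had the higher level of both genes. Mir23b lay above Mir23a within each library, but the ranges of the 2 genes overlapped, since Mir23a in replicate 1 exceeded Mir23b in replicate 2. Both levels rest on reads that reach position 19 of the 3p form or come from the 5p form.

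Mir27b had 4368 CPM in replicate 2 and 4169 CPM in replicate 1, a mean of 4269 ± 140 CPM (SD, n = 2). Mir27a was lower, with 598 CPM in replicate 2 and 867 CPM in replicate 1, a mean of 733 ± 190 CPM. The ranges of the miR-27 paralogues were far apart. Summed, the pair had 4966 CPM in replicate 2 and 5037 CPM in replicate 1, so the miR-27 total differed by a log2 ratio of -0.02 of replicate 2 over replicate 1. The miR-23 total differed by -0.56, with 43663 CPM in replicate 2 and 64394 CPM in replicate 1.

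Mir24-2 had 144 CPM in replicate 2 and 207 CPM in replicate 1, from 243 and 821 counts, a mean of 176 ± 44.7 CPM (SD, n = 2). Mir24-1 had 56.3 CPM in replicate 2 and 42.7 CPM in replicate 1, from 95 and 169 counts, a mean of 49.5 ± 9.66 CPM. Mir24-2 was above Mir24-1 in both libraries, and their ranges did not overlap. These values are not levels of miR-24-3p, whose full-length reads align to both loci and were set aside; they count the reads that fit 1 locus, such as those of the distinct 5p forms. RefSeq lists 57 of the counted miRNA genes with some mature forms shared with another locus and others not. Of these, 40 were detected, and the 2 Mir24 genes ranked 14 and 24 by mean CPM, below Mirlet7f-2 with 4123 ± 865 CPM and Mir16-1 with 1554 ± 392 CPM. The 40 had a median of 88.9 CPM in replicate 2 and of 52.3 CPM in replicate 1. The 264 detected genes with no shared form had medians of 287 CPM and 274 CPM in the same order.

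**Figure D2:**
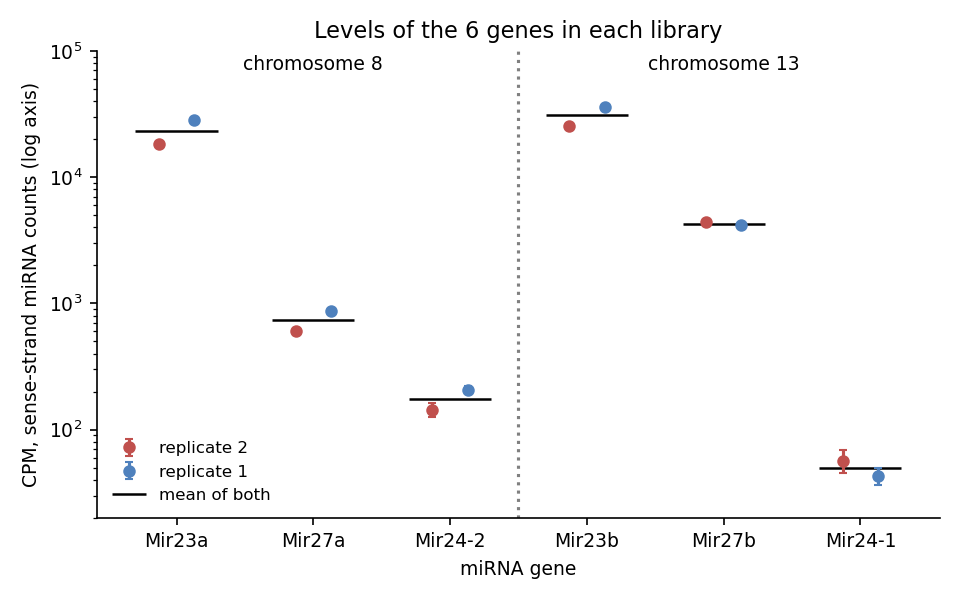
CPM of each gene on a log axis, with replicate 2 in red on the left and replicate 1 in blue on the right. Bars are exact 95% intervals that cover counting error only, and the line is the mean of both libraries. Counts cover reads that fit 1 locus, from a mean of 30777 CPM for Mir23b to 49.5 CPM for Mir24-1, and the Mir24 points leave out the reads of miR-24-3p.

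The chromosome 13 cluster had the higher summed level in each library. The chromosome 8 cluster had 18927 CPM in replicate 2 and 29391 CPM in replicate 1, a mean of 24159 ± 7399 CPM (SD, n = 2). The chromosome 13 cluster had 29902 CPM in replicate 2 and 40289 CPM in replicate 1, a mean of 35096 ± 7345 CPM. Their ranges nearly met, with the chromosome 8 cluster in replicate 1 just below the chromosome 13 cluster in replicate 2.

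The paralogue pairs divided their counts differently, and the direction turned with the family. Mir23a gave 41.6% of the miR-23 counts in replicate 2 (95% exact interval 41.3 to 42.0%) and 44.0% in replicate 1 (43.8 to 44.2%). Mir27a gave 12.0% of the miR-27 counts in replicate 2 (11.4 to 12.8%) and 17.2% in replicate 1 (16.7 to 17.8%). Mir24-2 gave 71.9% of the miR-24 counts in replicate 2 (66.8 to 76.6%) and 82.9% in replicate 1 (80.4 to 85.2%). So chromosome 13 gave most of the miR-27 counts and somewhat more of the miR-23 counts, and chromosome 8 gave most of the few miR-24 counts. The miR-24 counts leave out the reads of miR-24-3p, whereas the miR-23 and miR-27 counts can hold 3p reads that reach position 19. The miR-24 share is therefore an unlike measure and does not give the origin of miR-24-3p. On the log2 scale, after 0.5 CPM was added, the ratio of chromosome 8 over chromosome 13 averaged -0.42 ± 0.10 for miR-23, -2.57 ± 0.43 for miR-27 and 1.81 ± 0.65 for miR-24 (SD, n = 2). The intervals of the libraries did not overlap for any of the 3 pairs, and the chromosome 8 share was the lower in replicate 2 each time. These intervals cover counting error only, since reads are not independent molecules.

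**Figure D3:**
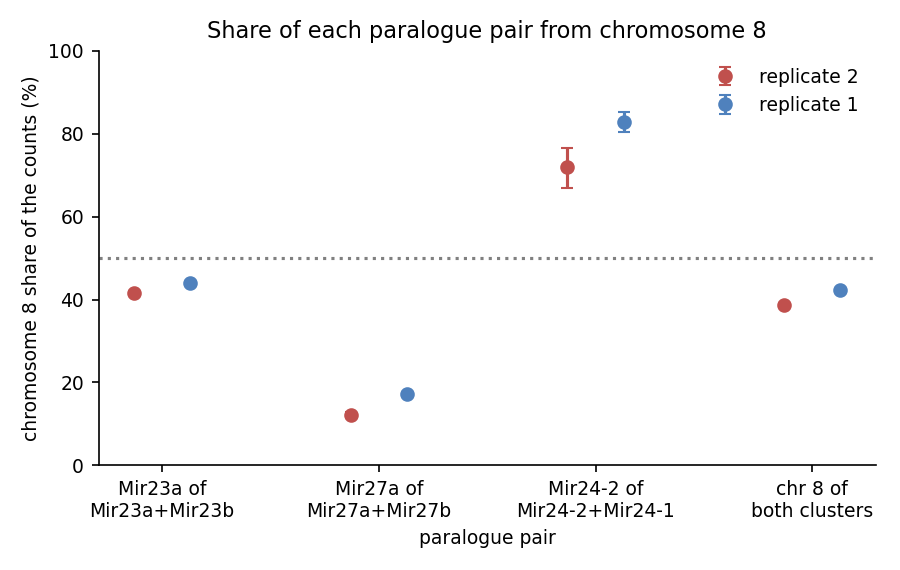
Share of the counts of each paralogue pair, and of both clusters, that came from chromosome 8, in percent, for replicate 2 (red, left) and replicate 1 (blue, right) with exact 95% intervals. Mir27a lies at 12.0% and 17.2%, Mir23a at 41.6% and 44.0% and Mir24-2 at 71.9% and 82.9%; the dotted line marks equal shares.

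The make-up of the 2 clusters also differed. On chromosome 8, Mir23a held 96.1% of the cluster's counts in replicate 2 and 96.3% in replicate 1. Mir27a held 3.16% and 2.95%, and Mir24-2 held 0.761% and 0.705%, in the same order. Mir23a thus exceeded Mir27a by 30.4-fold in replicate 2 and 32.7-fold in replicate 1. It exceeded Mir24-2 by 126-fold in replicate 2 and 137-fold in replicate 1, in counts that leave out miR-24-3p. On chromosome 13, Mir23b held 85.2% in replicate 2 and 89.5% in replicate 1, and Mir27b held 14.6% and 10.3%. Mir23b exceeded Mir27b by 5.83-fold in replicate 2 and 8.65-fold in replicate 1. Mir24-1 held 0.188% and 0.106%.

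The libraries were compared gene by gene with a two-sided exact binomial test of the counts against the library totals, over the 404 genes that reached 10 counts in 1 library or more. A call needed an adjusted p (Benjamini-Hochberg) under 0.05 together with a log2 ratio past 1 or -1. This compares 2 libraries, not conditions. None of the 6 genes was called different, where 18.3% of all tested genes were called, 9.65% as higher and 8.66% as lower in replicate 2. With no limit on the size, 5 of the 6 passed the adjusted threshold, as did 62.1% of all tested genes. The 5 comprised 4 genes lower in replicate 2, where the background was 32.4%, and 1 gene higher, where it was 29.7%. Mir24-1, the sixth, passed as well when the totals were scaled by trimmed mean of M-values (TMM) factors or by DESeq2 size factors over the tested genes, where 62.9% and 63.1% of all tested genes passed. With TMM factors taken over every gene, a scaling chosen after the data had been seen, 4 of the 6 passed, as did 61.1% of all tested genes.

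The 3 genes on chromosome 8 differed by nearly the same ratio. The log2 ratio of replicate 2 over replicate 1 was -0.64 for Mir23a, -0.54 for Mir27a and -0.52 for Mir24-2, a span of 0.12. Counting error alone gave Mir27a a 95% exact interval of -0.64 to -0.43 (adjusted p = 4.29e-26, exact binomial test). For Mir24-2 it gave -0.74 to -0.32 (adjusted p = 8.42e-07, exact binomial test). The 3 intervals overlapped. With counts scaled to all reads in the tables, which shifted log2 ratios by -0.39, Mir23a was at -1.03 and was called lower in replicate 2, and so were 15.6% of all tested genes.

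The 3 genes on chromosome 13 did not move together. The log2 ratio was -0.50 for Mir23b, with an interval of -0.52 to -0.49. It was 0.07 for Mir27b, with an interval of 0.03 to 0.11 (adjusted p = 0.00187, exact binomial test), and it turned to -0.040 under TMM factors over every gene and to -0.32 with counts scaled to all reads. For Mir24-1 it was 0.40, with an interval of 0.02 to 0.77 (adjusted p = 0.0504, exact binomial test). The adjusted p of Mir24-1 was 0.0415 with TMM factors, 0.0289 with DESeq2 size factors and 0.159 with TMM factors over every gene, all by the exact binomial test. With counts scaled to all reads its log2 ratio was 0.013 (adjusted p = 0.973, exact binomial test), so its side of the adjusted threshold depended on the scaling. The span over the 3 genes was 0.90, and the interval of Mir23b overlapped neither of the others. Over all 6 genes the median log2 ratio was -0.51, against -0.05 over the 404 tested genes. The median size was 0.51 over the 6 and 0.50 over all tested genes.

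**Figure D4:**
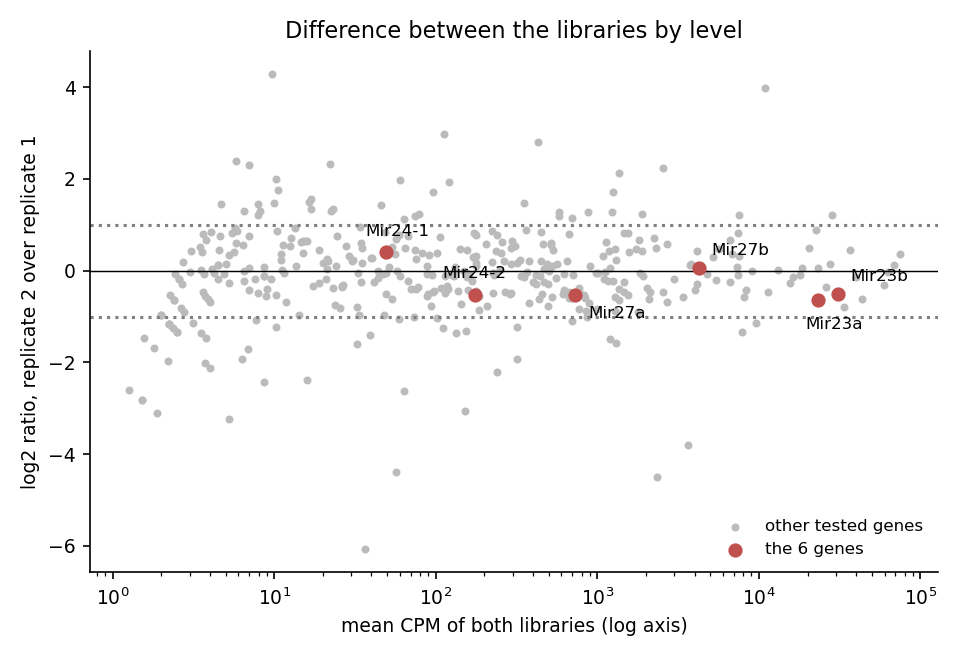
Log2 ratio of replicate 2 over replicate 1 (CPM + 0.5) against mean CPM on a log axis, for the 404 tested genes in grey with the 6 genes in red. Dotted lines mark log2 ratios of 1 and -1; all 6 genes lie between them, from -0.64 for Mir23a to 0.40 for Mir24-1.

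Markers of other cell types moved between the same libraries, where 9.65% of all tested genes were called higher and 8.66% lower in replicate 2. Mir122, the hepatocyte marker, had 20602 CPM in replicate 2 and 1299 CPM in replicate 1. The 3 erythroid genes, all detected and 2 of them called lower in replicate 2, summed to 595 CPM in replicate 2 and 7248 CPM in replicate 1. Most of this sum was Mir451a, with 491 CPM in replicate 2 and 6842 CPM in replicate 1. Mir486, the gene not called, went the other way, with 19.6 CPM in replicate 2 and 12.4 CPM in replicate 1. Of the 7 neuroendocrine genes, Mir182 (-1.22) and Mir7-2 (-1.03) were called lower in replicate 2 and none higher, while the list, led by Mir375, summed to 47026 CPM in replicate 2 and 36907 CPM in replicate 1. Both endothelial genes were detected, neither was called, and they summed to 83398 CPM in replicate 2 and 65225 CPM in replicate 1. This sum rests on Mir126a alone, since Mir126b had only 12 counts in replicate 2 and 15 in replicate 1. Of 6 genes of smooth muscle and stroma 4 were detected, with Mir145b at 0, and no member was called, and the list summed to 41751 CPM in replicate 2 and 44515 CPM in replicate 1. The part of these cell types in the differences of the 6 genes was not tested.

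Other miRNAs with a known part in blood vessel growth varied in both directions. Of 23 such genes, all tested, 2 were higher in replicate 2, 4 were lower and 17 were not called, with a median log2 ratio of -0.22. Over all tested genes 9.65% were higher, 8.66% were lower and the median was -0.05. Mir132 and Mir222 were the higher ones, at 1.15 and 1.70, and Mir130a (-1.15), Mir296 (-1.02), Mir218-1 (-2.39) and Mir19a (-2.42) were the lower ones. The list was led by Mir126a with 74306 ± 12848 CPM and Mir10a with 59253 ± 8923 CPM (SD, n = 2), both above Mir23b. Of 15 genes linked to lipid metabolism, 14 were tested, 4 were higher in replicate 2, 2 were lower and 8 were not called, with a median of 0.10, against the same shares and median over all tested genes. Its leading genes were Mir143 with 39753 ± 2564 CPM, which like Mir23b is among the abundant genes of the gland, and Mir378a with 13087 ± 152 CPM.

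No other listed gene carried the seeds of miR-23a-3p or miR-27. The seed of miR-24-3p occurs in the mature forms of 4 more genes, Mir6413, Mir6410, Mir6369 and Mir5124b, and all 4 had 0 counts in both libraries. A count of 0 allows up to 1.78 CPM in replicate 2 and 0.757 CPM in replicate 1, taken as 3 counts. By distance between log2(CPM + 0.5) values over the 2 libraries, the genes nearest in level were Mir335 to Mir23a (0.33), Mir26b to Mir23b (0.24), Mir196b to Mir27a (0.13), Mir191 to Mir27b (0.24), Mir30b to Mir24-2 (0.08) and Mir92b to Mir24-1 (0.05). The next nearest were Mir99a, Mir335, Mir328, Mir100, Mir1843a and Mir205, in the order Mir23a, Mir23b, Mir27a, Mir27b, Mir24-2 and Mir24-1. With 2 libraries, nearness is mostly likeness of level.

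Set beside 7 other pairs of paralogous miRNA clusters, the summed ratio of the chromosome 8 over the chromosome 13 cluster, -0.66 in replicate 2 and -0.46 in replicate 1 on the log2 scale, averaged -0.56 ± 0.14 (SD, n = 2). The mean log2 ratios of the other pairs ran from -0.32 ± 0.27 for miR-181 to 2.46 ± 0.40 for miR-29 (SD, n = 2), with the cluster of Mir29a and Mir29b-1 over that of Mir29c and Mir29b-2, where the choice of numerator is arbitrary. Of the 36 genes in those pairs, 13 share a mature form with another locus, so their ratios also cover only the reads that fit 1 locus. Replicate 2 minus replicate 1, the cluster ratio of miR-23/27/24 changed by -0.20. By size this lay between 0.05 for miR-17/92 and -0.56 for miR-29, the least and the greatest change of the other pairs. These differences were not tested.

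**Figure D5:**
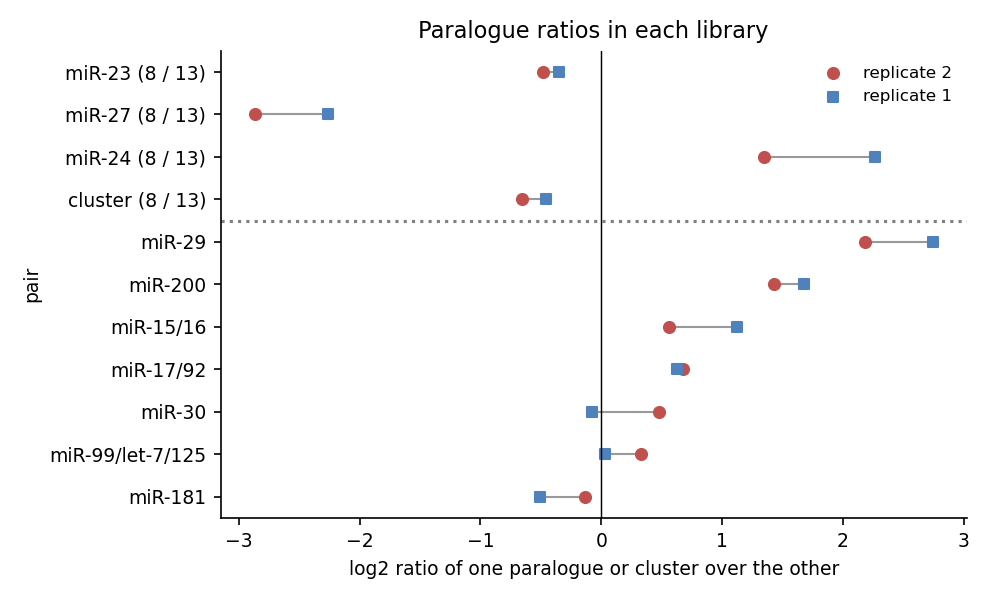
Log2 ratio of 1 paralogue or cluster over the other on the x axis, in replicate 2 (red circles) and replicate 1 (blue squares), with the miR-23/27/24 ratios of chromosome 8 over chromosome 13 above the dotted line and 7 other cluster pairs below it. MiR-27 lies at -2.87 and -2.26 and miR-24 at 1.35 and 2.27, on opposite sides of 0. The miR-24 ratio leaves out the reads of miR-24-3p.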

How the data were processed

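The authors deposited whole-number read counts per miRNA gene, 1 table per library, on build mm10 with annotation M21, per the file headers of the file lists beside them. The aligner, adapter trimming and read filters are not given in the sources used here. Each table had an either-strand column and 2 strand columns. Of the strand columns, the fuller was taken as the sense strand, and 4 summary rows (74.3% of replicate 2 and 66.3% of replicate 1) were left out of totals. A count belongs to a precursor, so 5p and 3p forms were not told apart. Symbols, positions and hosts came from GENCODE M21, whose 2202 miRNA genes all matched. Sequences came from RefSeq (GRCm38.p6), where all 6 genes matched, and uniqueness was searched in the annotated precursors, not in the genome.

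CPM, exact Clopper-Pearson 95% intervals and binomial tests used scipy 1.17.1, pandas 2.3.3 and numpy 2.4.6 in Python 3.11.15. The test was checked on simulated counts with known changes. Those counts held counting error alone, so the check does not cover other variation between libraries. TMM factors came from edgeR 4.0.16 and size factors from DESeq2 1.42.0 in R 4.3.3, over the genes that the binomial test covered. The SDs are over the 2 libraries, which share a donor label and count as 2 animals only by their male numbers. Alternatives changed the count column, the scaling, the total, the added CPM, the thresholds and the libraries used. Named genes were the 6 genes, genes on the other strand, 2 nearest genes for each, genes with the same seed, and listed genes. The genes and lists were chosen with earlier results of these data known.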

Additional observations from a re-analysis of the deposited data

Results flagged for a closer look

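Reads on the strand opposite to Mir24-1 lay outside the measurement of the 6 genes and exceeded the 3 counts that a count of 0 allows in both libraries, with 34 counts in replicate 2 and 104 counts in replicate 1. They equal 35.8% and 61.5% of the sense-strand counts of Mir24-1 in the same order, and the annotation gives them to Mir3074-1 (chromosome 13, 63301199 to 63301283, minus strand). On chromosome 8, the strand opposite to Mir24-2 had 0 counts in both libraries, although Mir3074-2 is annotated there. RefSeq lists Mir3074-2 with a mature form that another locus shares. Reads of that form that fit both loci were set aside and count for neither, so this limit holds for the other locus too. The contrast with Mir3074-1 was not tested. The other 4 genes had at most 1 count on the opposite strand, that of Mir27b in replicate 1.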

How the results depend on the processing

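Of 120 alternatives, those without a library aside, 99 were graded as leaving the result the same. That grade did not follow every threshold. It includes Mir24-1 with TMM or DESeq2 factors, where its adjusted p fell below 0.05 by the exact binomial test. The grade also includes the alternatives under which 5 or 4 of the 6 genes were detected. Many of the 120 could hardly have moved, because a ratio within a library does not depend on scaling. Leaving out either library gives the other library's values, and with 2 libraries this says nothing about stability. The cause of each change below was not tested, apart from changes that follow from how the alternative is built. Scaled to all reads in the tables, levels fell by construction, to 7104 CPM for Mir23a, 223 for Mir27a, 53.4 for Mir24-2, 9348 for Mir23b, 1263 for Mir27b, 14.4 for Mir24-1, 7381 for the chromosome 8 cluster and 10626 for the chromosome 13 cluster. That scaling shifted log2 ratios of replicate 2 over replicate 1 by -0.39, after which Mir23a was at -1.03 and the 1 gene called of the 6 (82 of all tested, as against 74, a count chosen after the data had been seen), the chromosome 8 cluster was at -1.02, and Mir27b turned from 0.07 to -0.32. TMM factors over every gene, chosen after the data had been seen, shifted ratios by -0.11 and turned Mir27b to -0.040; TMM and DESeq2 factors over genes with at least 10 counts shifted them by 0.02 and 0.05. In the either-strand column Mir24-2 and Mir24-1 were at 0 CPM, since each overlaps a Mir3074 gene on the other strand, so their ratio could not be had there, and Mir27b was at 4875 CPM; without Mir126a in the total Mir27b was at 4613 CPM. At a log2 size over 0.58, 132 genes were called, 1 of them (Mir23a) among the 6; with no limit on the size, 251 genes and 5 of the 6, and all 6 with TMM or DESeq2 factors over genes with at least 10 counts, a joint change also chosen after the data had been seen. No paired analysis was possible because there is 1 group. Of the 6 genes, 5 would count as detected if 100 counts were required, and 4 in the either-strand column. Depth limits Mir24-1 most, with 95 and 169 counts.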
